A study of Mus musculus with 15 samples.

Results

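The suppressor of cytokine signaling (SOCS) family has 8 members, *Socs1* to *Socs7* and *Cish*, and all 8 were found by gene symbol among the 21110 genes of the expression tables. They were followed in ear RNA of C57BL/6 mice that were either wild type (WT) or *Socs3* conditional knockouts (*Socs3* cKO), in which the deletion is driven in cells that express keratin 5. There were 4 WT and 4 *Socs3* cKO mice at 2 weeks after birth, and 3 WT and 4 *Socs3* cKO mice at 10 weeks, with 1 library of single 50-base reads per mouse. RNA came from whole ear specimens, although the sample labels name keratinocytes as the source, so cells that do not express keratin 5 contributed to every value. The question was how the other SOCS genes stood when *Socs3* was targeted in keratinocytes.

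SOCS proteins are feedback inhibitors of cytokine receptors. A cytokine activates Janus kinases (JAKs) on its receptor, the kinases phosphorylate STAT transcription factors, and STATs switch on SOCS genes, whose products then bind the receptor or the kinase and shut the signal down. Every member has an SH2 domain, which binds phosphorylated tyrosine, and a C-terminal SOCS box, which recruits elongins and a cullin to mark bound proteins for degradation. SOCS1 and SOCS3 also carry a short kinase inhibitory region that blocks JAKs directly. In skin, SOCS3 is known for restraining signals of the interleukin (IL)-6 family through STAT3.

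The libraries differed in more than genotype. The depth was estimated from the steps of low values at 11200000 to 16200000 mapped reads per mouse, and it gives no counting error for a gene. The GC gap of a library, taken as the log2 deviation from the mean of all libraries of the GC-richest 20% of genes minus that of the GC-poorest 20%, was 0.71 to 0.79 in WT at 2 weeks and 0.12 to 0.59 in WT at 10 weeks. In *Socs3* cKO libraries it lay between -0.14 and -0.41 at 10 weeks and between -0.19 and -2.32 at 2 weeks, where replicate 1 stood apart at -2.32. The same gap between the longest and the shortest 20% of genes was 0.41 to 0.66 in WT at 2 weeks and -1.03 to -0.24 in WT at 10 weeks. In *Socs3* cKO the length gap was -0.94 to 0.51 at 2 weeks and -0.39 to 0.42 at 10 weeks. WT libraries at 10 weeks had 1414 to 3176 genes at 0 FPKM, against 4044 to 4423 in all other libraries. The codes that open the sample titles, whose meaning is not stated, ran in separate ranges for the 4 groups, so whatever they follow and the group cannot be told apart. Keratinocyte markers were present in every library, with a summed level of 6337 to 12980 FPKM, next to markers of fibroblasts at 4126 to 15280 FPKM and of skeletal muscle at 563.5 to 4518 FPKM. The labels do not say whether the mice came from separate litters, and p-values measure the spread between these mice.

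On mm9, the build used for the tables, *Socs3* lay at chr11:117827393-117831361, minus strand, *Socs1* at chr16:10783901-10785629, minus strand, *Cish* at chr9:107198357-107205115, plus strand, *Socs2* at chr10:94847996-94879814, minus strand, *Socs4* at chr14:47896606-47915773, plus strand, *Socs5* at chr17:87507019-87536923, plus strand and *Socs7* at chr11:97223865-97259856, plus strand. Promoter sequences from RefSeq (GRCm38.p6), running from 250 bases before to 50 bases after the gene start, were matched for 4 members, *Socs1*, *Socs3*, *Socs4* and *Cish*. *Socs2*, *Socs5*, *Socs6* and *Socs7* were not matched. Of the 4, the 3 below are shown because they hold a match to a cytokine response motif, and the capitals mark the matches. The motifs searched on both strands were TTCNNNGAA, the gamma-activated site bound by STAT dimers, the core of the interferon-stimulated response element (GAAA, any 2 bases, GAAA), and TGANTCA, the AP-1 site. The sequences of *Socs1* and *Socs3* end at the base before the gene start, and that of *Cish* runs from base -120 to base 30, with base 1 the gene start.
Socs3, chr11:117969367-117969616, minus strand: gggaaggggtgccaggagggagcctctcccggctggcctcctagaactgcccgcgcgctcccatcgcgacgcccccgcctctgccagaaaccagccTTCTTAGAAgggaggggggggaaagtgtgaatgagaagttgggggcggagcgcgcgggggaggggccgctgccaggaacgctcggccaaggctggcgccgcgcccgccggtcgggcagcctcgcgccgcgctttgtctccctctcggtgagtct
Socs1, chr16:10785537-10785786, minus strand: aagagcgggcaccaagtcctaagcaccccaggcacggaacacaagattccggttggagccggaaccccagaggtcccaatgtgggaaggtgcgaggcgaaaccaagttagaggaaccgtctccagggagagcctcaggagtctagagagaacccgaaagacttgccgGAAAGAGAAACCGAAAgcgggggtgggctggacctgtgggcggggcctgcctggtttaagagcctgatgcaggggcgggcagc
Cish, chr9:107296539-107296688, plus strand: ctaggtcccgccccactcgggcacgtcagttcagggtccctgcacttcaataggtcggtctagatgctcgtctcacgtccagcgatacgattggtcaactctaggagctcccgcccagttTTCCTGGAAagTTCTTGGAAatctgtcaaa

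*Socs3* held 1 gamma-activated match, TTCTTAGAA, at bases -154 to -146. *Cish* held TTCCTGGAA at bases 1 to 9 and TTCTTGGAA at bases 12 to 20, just after the gene start. *Socs1* held the overlapping interferon-type matches GAAAGAGAAA at bases -83 to -74 and GAAACCGAAA at bases -77 to -68. Of 32851 promoters of the same length, 8.30% held TTCNNNGAA, 3.44% the interferon-type core and 7.81% TGANTCA. No AP-1 match lay in the 4 windows, and *Socs4* had a match to none of the 3 motifs in its window. A match is a description of letters and was not tested as a binding site.

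Levels are given as FPKM, which divides by transcript length and library size. The GC and length gaps between libraries remain in it, so the orders of genes below are descriptions. In WT at 2 weeks, 7 of the 8 members lay close together, with mean levels from 6.37 FPKM for *Socs7* to 11.1 FPKM for *Socs5*, and *Socs4* was far below at 1.24 FPKM. Within that order the ranges of *Socs5* and *Cish*, of *Cish* and *Socs3*, of *Socs1* and *Socs2* and of *Socs6* and *Socs7* overlapped. In WT at 10 weeks the order ran *Socs2*, *Socs1*, *Socs5*, *Cish*, *Socs6*, *Socs7*, *Socs3* and *Socs4*, and each neighbour overlapped the next except *Socs3* and *Socs4*. In *Socs3* cKO at 2 weeks the order ran *Socs2*, *Socs5*, *Socs6*, *Socs3*, *Cish*, *Socs4*, *Socs1* and *Socs7*, and all neighbours overlapped. In *Socs3* cKO at 10 weeks *Socs3* stood first at 36.6 FPKM, then *Cish* at 24.7 FPKM and *Socs2* at 21.6 FPKM, and these 3 were separated from *Socs6* at 12.6 FPKM, with ranges of *Socs3* and *Cish* and of *Cish* and *Socs2* overlapping.

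**Figure D1:**
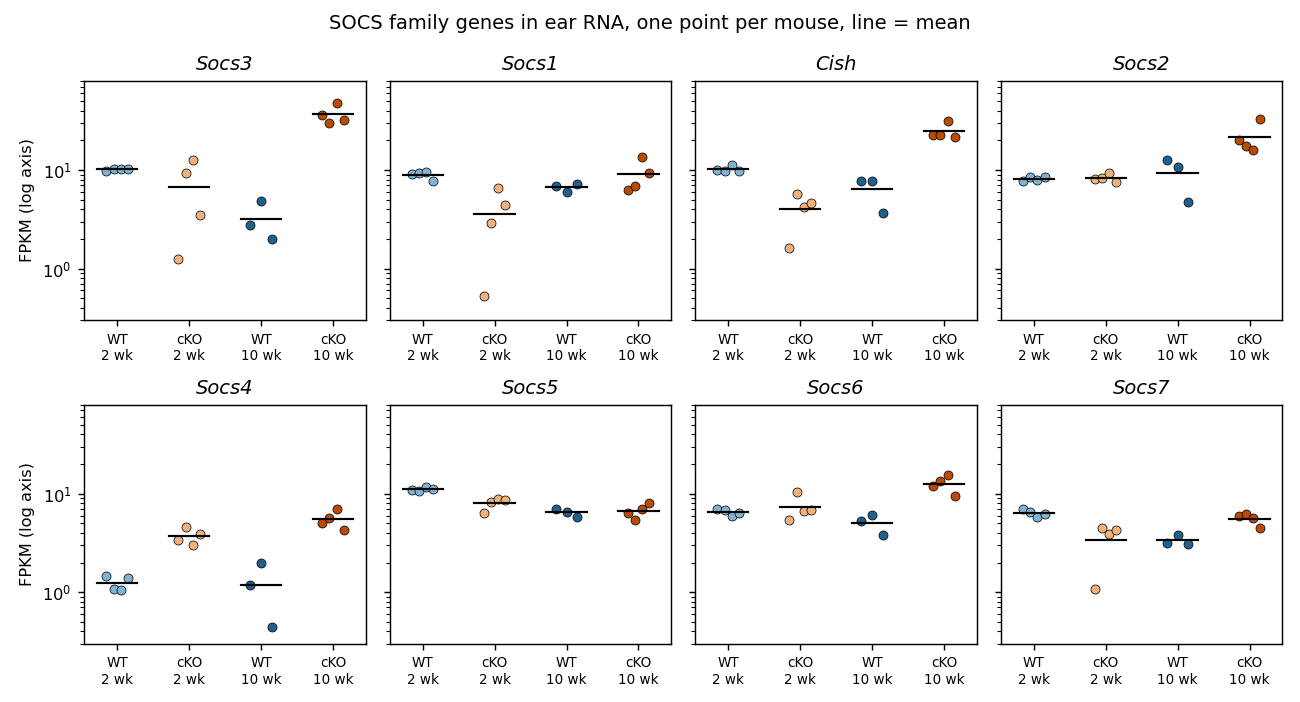
Each panel plots 1 gene on a log axis of FPKM, with a point for each mouse and a line at the group mean. At 10 weeks the 4 *Socs3* cKO mice sit at 29.8 to 47.7 FPKM for *Socs3* and 21.9 to 31.6 FPKM for *Cish*, above every WT mouse of that age.

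*Socs3*, the targeted gene, was not called lower in *Socs3* cKO ears at 2 weeks and rose at 10 weeks. At 2 weeks its levels were 9.71, 10.2, 10.3 and 10.3 FPKM in WT and 1.25, 9.32, 12.6 and 3.51 FPKM in the libraries labelled *Socs3* cKO. Replicates 1, 2 and 4 lay below every WT mouse and replicate 3 above, so the groups overlapped, with a log2(FC) of -1.06 (SE 0.63, adjusted p = 0.18, limma). At 10 weeks the levels were 2.76, 4.81 and 2.02 FPKM in WT and 36.5, 29.8, 47.7 and 32.4 FPKM in the libraries labelled *Socs3* cKO, an 11.7-fold rise on the log2(FPKM + 0.1) scale (log2(FC) = 3.54, SE 0.29, adjusted p = 7.2e-05). All 4 *Socs3* cKO mice lay far above all 3 WT mice. The labels of the 10-week libraries therefore go against the level of the targeted gene, and every direction below is that of the libraries labelled *Socs3* cKO. FPKM counts reads over the whole gene, in RNA of all ear cells, and fewer cells of a type cannot be told apart from less RNA per cell.

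*Socs1*, the closest relative of *Socs3* and the main brake on interferon receptors, was below WT at 2 weeks without passing the thresholds, and overlapped with WT at 10 weeks. At 2 weeks it had 9.16, 9.37, 9.47 and 7.75 FPKM in WT and 0.528, 2.91, 6.56 and 4.39 FPKM in *Socs3* cKO, with no overlap and the lowest value in replicate 1. The log2(FC) was -1.72 (SE 0.64, adjusted p = 0.0539), and it was -1.01 (adjusted p = 0.00684) without *Socs3* cKO replicate 1. At 10 weeks the levels were 6.93, 5.92 and 7.25 FPKM in WT and 6.33, 6.87, 13.5 and 9.36 FPKM in *Socs3* cKO. The groups overlapped, and the log2(FC) was 0.36 (SE 0.27, adjusted p = 0.3). Of the 2 members with a kinase inhibitory region, *Socs3* passed the thresholds at 10 weeks and *Socs1* did not, and the difference between these genes was not tested.

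*Cish*, a STAT5 target that acts on receptors of growth hormone, IL-2 and erythropoietin, lay below WT at 2 weeks and rose at 10 weeks. At 2 weeks it had 10.1, 9.73, 11.2 and 9.87 FPKM in WT and 1.61, 5.71, 4.2 and 4.61 FPKM in *Socs3* cKO. No *Socs3* cKO mouse reached the lowest WT mouse, and the log2(FC) of -1.45 (SE 0.35, adjusted p = 0.0128) missed the threshold of 0.01. It passed without *Socs3* cKO replicate 1 (log2(FC) = -1.07, adjusted p = 0.000211) and without replicate 2 (-1.66, adjusted p = 0.00639). At 10 weeks the levels were 7.75, 7.74 and 3.7 FPKM in WT and 22.7, 22.6, 31.6 and 21.9 FPKM in *Socs3* cKO, again without overlap but in the opposite direction. This was a 3.98-fold rise (log2(FC) = 1.99, SE 0.28, adjusted p = 0.00102).

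*Socs2*, the feedback inhibitor of the growth hormone receptor, had almost the same level in both genotypes at 2 weeks. WT mice had 7.69, 8.55, 7.87 and 8.46 FPKM and *Socs3* cKO mice 8.1, 8.37, 9.27 and 7.47 FPKM, with a log2(FC) of 0.025 (SE 0.13, adjusted p = 0.883). At 10 weeks WT mice had 12.6, 10.7 and 4.75 FPKM and *Socs3* cKO mice 20.1, 17.7, 15.9 and 32.6 FPKM. All *Socs3* cKO mice were above all WT mice, and the log2(FC) of 1.26 (SE 0.35, adjusted p = 0.0205) did not pass at 0.01. It passed in the fit of all 4 groups (adjusted p = 0.00465).

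*Socs4* was the only member that rose at both ages. *Socs4* and *Socs5* have long N-terminal regions and are known to bind the epidermal growth factor receptor. *Socs4* had 1.45, 1.08, 1.05 and 1.39 FPKM in WT and 3.37, 4.55, 2.99 and 3.93 FPKM in *Socs3* cKO at 2 weeks, a 2.83-fold rise (log2(FC) = 1.50, SE 0.20, adjusted p = 0.00113). At 10 weeks it had 1.18, 1.96 and 0.441 FPKM in WT and 5.07, 5.73, 7.05 and 4.24 FPKM in *Socs3* cKO, a 4.91-fold rise (log2(FC) = 2.30, SE 0.41, adjusted p = 0.0031). The groups did not overlap at either age, and in WT *Socs4* had the lowest mean level of the family at both ages. The 10-week call was lost without WT replicate 1 (log2(FC) = 2.39, adjusted p = 0.0112). With a mouse left out the 10-week log2(FC) ran from 1.77 to 2.73. WT replicate 3 was near the floor at 0.441 FPKM. At 10 weeks *Socs4* thus passed the filter of at least 1 FPKM in at least 3 samples only through *Socs3* cKO mice.

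*Socs5* was not called at either age. At 2 weeks it had 10.8, 10.7, 11.7 and 11.1 FPKM in WT and 6.4, 8.2, 8.82 and 8.68 FPKM in *Socs3* cKO, all lower, with a log2(FC) of -0.47 (SE 0.15, adjusted p = 0.0297). At 10 weeks it had 7.04, 6.49 and 5.86 FPKM in WT and 6.44, 5.41, 7.05 and 8.02 FPKM in *Socs3* cKO. The WT range lay within that of *Socs3* cKO, with a log2(FC) of 0.048 (SE 0.20, adjusted p = 0.86).

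*Socs6* and *Socs7* are the other pair with long N-terminal regions and are known to act on insulin receptor signaling and receptor tyrosine kinases. *Socs6* had 6.95, 6.88, 5.97 and 6.35 FPKM in WT and 5.47, 10.3, 6.69 and 6.76 FPKM in *Socs3* cKO at 2 weeks, with overlap and a log2(FC) of 0.12 (SE 0.20, adjusted p = 0.628). At 10 weeks it had 5.23, 6.14 and 3.82 FPKM in WT and 12, 13.6, 15.3 and 9.44 FPKM in *Socs3* cKO, a rise without overlap (log2(FC) = 1.30, SE 0.23, adjusted p = 0.00306). This call was lost without WT replicate 1 (adjusted p = 0.0123), WT replicate 3 (0.0141) or *Socs3* cKO replicate 2 (0.0107), and under quantile normalization (log2(FC) = 0.90), which is short of the fold threshold. *Socs7* had 6.91, 6.46, 5.85 and 6.26 FPKM in WT and 1.08, 4.47, 3.85 and 4.29 FPKM in *Socs3* cKO at 2 weeks, all lower, with a log2(FC) of -1.05 (SE 0.41, adjusted p = 0.0632). At 10 weeks it had 3.16, 3.83 and 3.07 FPKM in WT and 5.9, 6.17, 5.71 and 4.53 FPKM in *Socs3* cKO. All 4 were higher than all WT mice, with a log2(FC) of 0.71 (SE 0.20, adjusted p = 0.0217).

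Counted over the family, 1 of 8 members was called at 2 weeks (*Socs4*, higher), where 7.24% of 13524 tested genes were called higher and 14.4% were called in either direction. The members' median log2(FC) was -0.76, against -0.21 over all genes. At 10 weeks 4 of 8 members were called (*Socs3*, *Cish*, *Socs4* and *Socs6*), all higher, where 12.5% of 13105 genes were called higher and 14.9% in all. Of these, *Socs4* passed the filter on low values only through *Socs3* cKO mice. The median of the members was 1.28, or 1.26 without *Socs3*, against 0.31 over all genes. All 8 members had a log2(FC) above 0 at 10 weeks, but *Socs5* fell below 0 under median-of-ratios scaling (-0.21) and quantile normalization (-0.37), *Socs1* under quantile normalization (-0.033), and *Socs5* (-0.64) and *Socs7* (-0.023) once the GC and length trend was removed. Those scalings moved the median of all genes at 10 weeks from 0.31 to 0.06 and -0.02, and the share of called genes that were higher from 83.7% to 62.9% and 54.4%.

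At 2 weeks 4 members (*Socs1*, *Socs5*, *Socs7* and *Cish*) had every *Socs3* cKO mouse below every WT mouse, where 33.2% of tested genes did, and *Socs4* had every one above, where 22.9% did. Each of these 5 had an exact 2-sided permutation p of 0.0286, the smallest that 4 mice against 4 allow. At 10 weeks 6 members (*Socs2*, *Socs3*, *Socs4*, *Socs6*, *Socs7* and *Cish*) had every *Socs3* cKO mouse above every WT mouse, where 31.2% of genes did. Their exact permutation p was 0.0571, the smallest that the test used here gives with groups of 3 and 4. Its 2-sided p doubles the smaller tail, and in that form a p under 0.05 is out of reach at this size.

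The effect of genotype itself differed between the ages for *Socs3*, *Cish* and *Socs6*. The log2(FC) at 10 weeks minus that at 2 weeks was 4.60 for *Socs3* (SE 0.77, adjusted p = 0.000644), 3.44 for *Cish* (SE 0.48, adjusted p = 0.000198) and 1.18 for *Socs6* (SE 0.31, adjusted p = 0.0085), in limma fits over all 4 groups. These were 3 of 8 members called, all with a larger effect at 10 weeks, where 18.0% of 13937 genes were called in that direction and 24.5% in all. *Socs7* (1.77, adjusted p = 0.0107), *Socs2* (1.23, adjusted p = 0.0217) and *Socs1* (2.08, adjusted p = 0.0384) missed the threshold, as did *Socs4* (0.80, adjusted p = 0.18) and *Socs5* (0.52, adjusted p = 0.0733). *Socs3* and *Cish* were called in all 15 fits that left out 1 mouse, whereas the call of *Socs6* was lost in 11 of 15, with adjusted p up to 0.0266, and under median-of-ratios scaling (0.72, adjusted p = 0.0292) and quantile normalization (0.35, adjusted p = 0.191). Without *Socs3* cKO replicate 1 of 2 weeks, *Socs1* (1.37, adjusted p = 0.00868) and *Socs7* (1.30, adjusted p = 0.000238) also passed, for 5 members in all. *Socs7* passed without replicate 2 (adjusted p = 0.00521) or 4 (adjusted p = 0.00903) of that group as well.

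**Figure D2:**
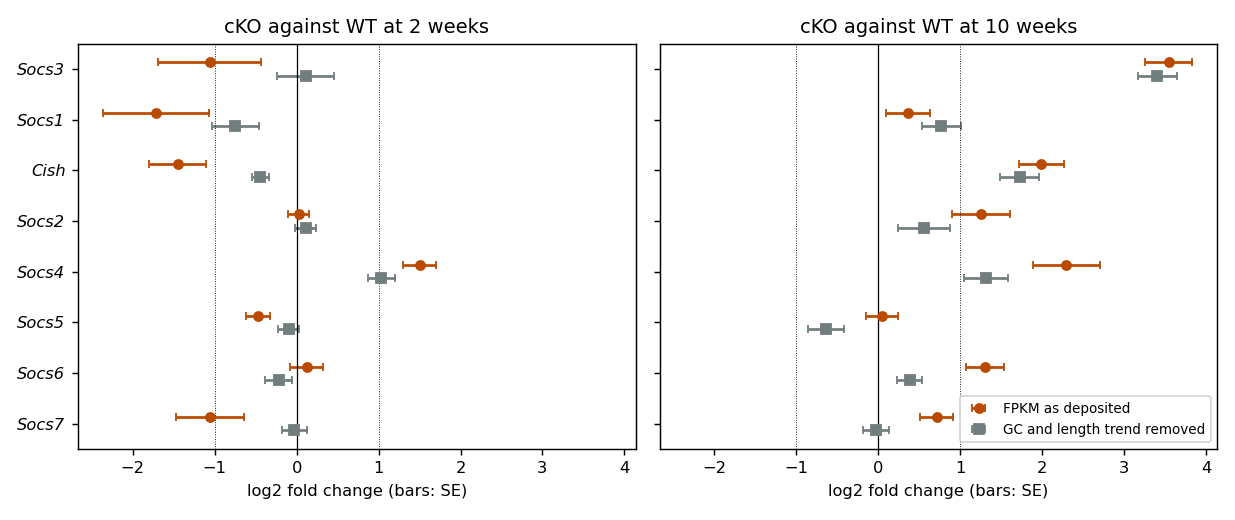
Points show the log2 fold change of each member in *Socs3* cKO against WT with its SE, at 2 weeks on the left and 10 weeks on the right, from FPKM as deposited (circles) and after removal of the trend with GC content and transcript length (squares). Dotted lines mark a log2 fold change of -1 and 1. At 2 weeks *Socs3* moves from -1.06 to 0.11, while at 10 weeks it stays at 3.54 and 3.41.

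Levels at 10 weeks were also set against 2 weeks within each genotype. In WT none of the 8 members was called in limma, where 25.5% of genes were called, although 3 members had an unadjusted p under 0.05, and 5 (*Socs1*, *Socs3*, *Socs5*, *Socs7* and *Cish*) had every 10-week mouse below every 2-week mouse, where 49.5% of genes did. The exact permutation p of those 5 was 0.0571. The 3 were *Socs5* with a log2(FC) of -0.77 (adjusted p = 0.00199), which is under the fold threshold, *Socs3* with -1.73 (adjusted p = 0.0201) and *Socs7* with -0.91 (adjusted p = 0.0483). *Socs3* passed in the fit of the 2 WT groups alone (adjusted p = 0.00044) and in the fit without *Socs3* cKO replicate 1 of 2 weeks (adjusted p = 0.000887). In *Socs3* cKO 3 members were called, all higher at 10 weeks, where 2.01% of genes were called higher and 3.54% in all. In 4 members (*Socs2*, *Socs3*, *Socs7* and *Cish*) every 10-week mouse was above every 2-week mouse, where 7.71% of genes were, each with an exact permutation p of 0.0286. *Socs3* rose by 2.88 (SE 0.52, adjusted p = 0.00301), *Cish* by 2.70 (SE 0.33, adjusted p = 0.000136) and *Socs2* by 1.31 (SE 0.27, adjusted p = 0.007) on the log2 scale. *Cish* was called in all 15 fits that left out 1 mouse, *Socs3* lost its call in the fit of the 2 *Socs3* cKO groups alone (adjusted p = 0.0392) and in 3 of 15, without *Socs3* cKO replicate 4 of 2 weeks (adjusted p = 0.011) or replicates 1 (0.0102) or 3 (0.013) of 10 weeks, and *Socs2* lost it in the same fit (adjusted p = 0.02) and in 12 of 15, with values from 1.10 to 1.44. Because the comparisons share libraries, the values within a genotype and those between genotypes are not independent.

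GC content moved with the 2-week result. Over all tested genes the median log2(FC) at 2 weeks ran from 0.48 in the GC-poorest 20% to -1.08 in the GC-richest 20%. The members spread over this range: *Socs4* (38.5% GC) and *Socs6* (39.9%) were in the poorest 20%, *Socs2* (45.4%) and *Socs5* (48.3%) in the next, *Socs7* (53.8%) in the one before the richest, and *Cish* (56.4%), *Socs3* (58.7%) and *Socs1* (63.6%) in the richest 20%. The GC and length trend of each library was then removed before limma, an analysis added after seeing the data. At 2 weeks *Socs1* then stood at -0.75 (adjusted p = 0.0535), *Socs5* at -0.098 (0.562) and *Socs7* at -0.026 (0.9). *Cish*, at -0.44 (adjusted p = 0.00782), passed the threshold on p but not on fold. *Socs4* was still called at 1.04 (adjusted p = 0.000909). At 10 weeks the medians by GC class ran from 0.54 to -0.002. With the trend removed, *Socs3* (3.41, adjusted p = 3.85e-05), *Cish* (1.73, adjusted p = 0.00106) and *Socs4* (1.31, adjusted p = 0.00652) were called, whereas *Socs6* fell short at 0.38 (adjusted p = 0.0827). The interaction was still called for *Socs3* (3.32, adjusted p = 0.000122) and *Cish* (2.19, adjusted p = 3.54e-05), and *Socs6* was not (0.59, adjusted p = 0.0491). *Socs1* gained a call there, in the interaction (1.52, adjusted p = 0.00908) and with age in *Socs3* cKO (1.35, adjusted p = 0.00342).

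**Figure D3:**
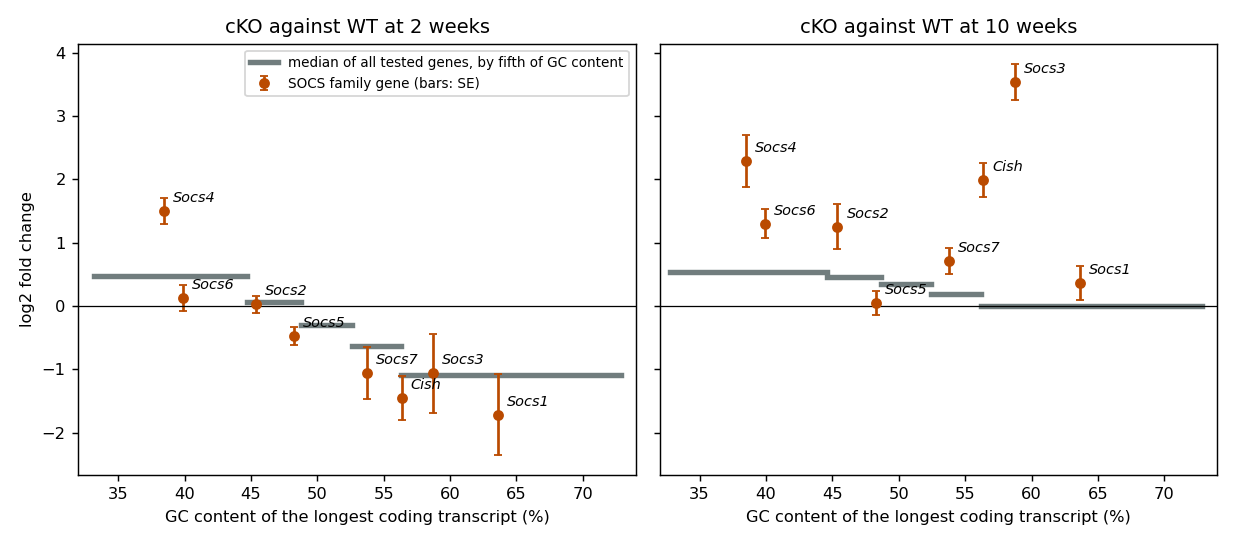
Each point is a SOCS family gene, placed by the GC content of its longest coding transcript (percent) and its log2 fold change in *Socs3* cKO against WT, with SE, at 2 weeks on the left and 10 weeks on the right. Grey bars give the median of all tested genes in each of 5 classes of GC content. At 2 weeks the bars step down from 0.48 to -1.08, and at 10 weeks *Socs3*, *Cish* and *Socs4* lie well above them.

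Shares within the family do not depend on a scaling factor between libraries, but they keep the GC and length gaps, since the members differ in GC content and length. *Socs3* made up 16.2% ± 0.546 (SD) of the summed FPKM of the 8 genes in WT and 13.2% ± 8.46 in *Socs3* cKO at 2 weeks, and 7.52% ± 2.27 in WT and 29.8% ± 3.22 in *Socs3* cKO at 10 weeks. *Cish* took 16.3% ± 0.939 in WT and 8.65% ± 2.36 in *Socs3* cKO at 2 weeks, and 15% ± 2.59 and 20.1% ± 1.78 at 10 weeks. The share of *Socs5* was 15.9% ± 2.75 in WT and 5.52% ± 0.751 in *Socs3* cKO at 10 weeks, with the level difference of 0.048 on the log2 scale given above. The summed family level at 2 weeks ran from 61.5 to 63.4 FPKM in WT mice and from 27.8 to 55.0 FPKM in *Socs3* cKO mice. At 10 weeks it ran from 30.9 to 47.6 FPKM in WT mice and from 107.9 to 143.8 FPKM in *Socs3* cKO mice. The ratio of *Socs3* to the other 6 members besides *Cish* was 0.48 to 0.74 in *Socs3* cKO at 10 weeks, against 0.08 to 0.14 in WT, so *Socs3* and these 6 genes did not change equally.

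**Figure D4:**
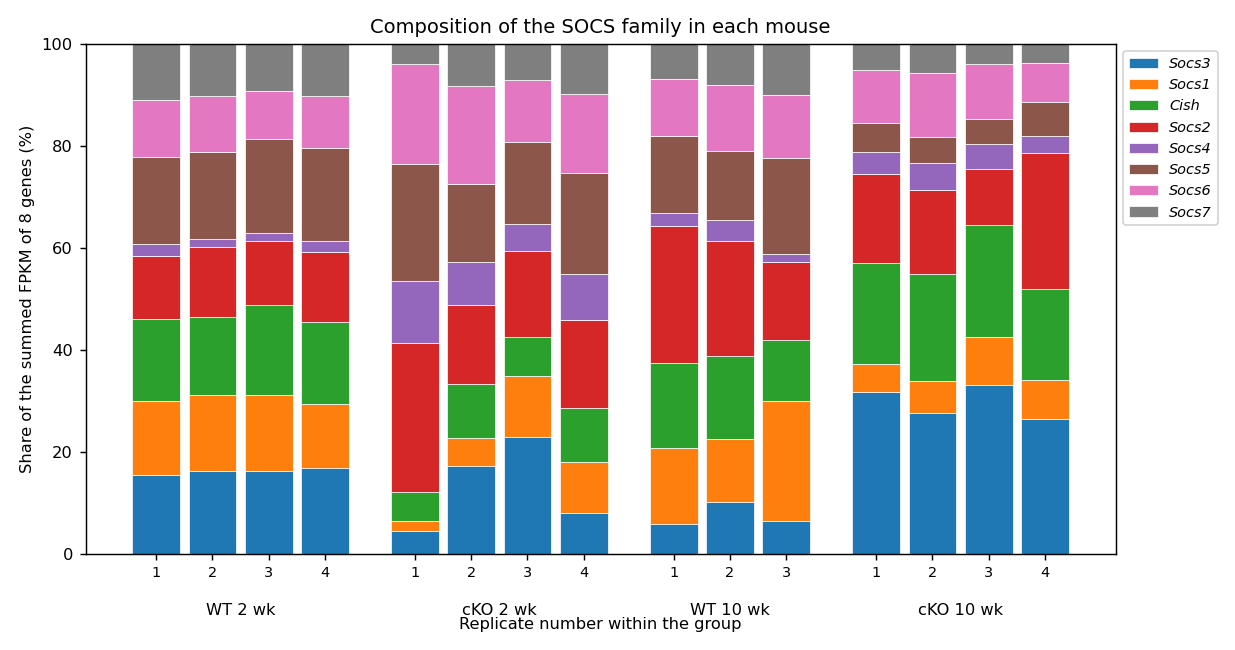
Stacked bars give the share (percent) of each gene in the summed FPKM of the 8 members, 1 bar per mouse, with replicate numbers under the bars. *Socs3* takes 26.5 to 33.2% in the 4 *Socs3* cKO mice at 10 weeks and 5.92 to 10.1% in the 3 WT mice of that age.

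Genes of the same pathway were counted in lists drawn up by known role, some of which share genes (among them *Pim1*, *Myc*, *Osm* and *Ccnd1*). At 10 weeks 11 of 15 STAT3 targets rose and none fell, where 12.5% of all genes were called higher, with a median log2(FC) of 1.49 against 0.31 over all genes. They included *Icam1*, a leukocyte adhesion molecule (3.85, SE 0.34, adjusted p = 0.00012), and *Junb*, an AP-1 subunit (3.48, SE 0.23, adjusted p = 1.93e-05). Of the 18 listed SOCS-inducing cytokines 9 passed the filter on low values. All 5 that were called higher passed it only through the *Socs3* cKO mice, with every WT mouse under 1 FPKM, so their number is not read as a result. *Il6*, a classic inducer of *Socs3*, averaged 0.256 ± 0.31 FPKM (SD, n = 3) in WT and 69.4 ± 32 FPKM (SD, n = 4) in *Socs3* cKO. It was 7.84 higher on the log2 scale, and *Osm*, of the same family, was 2.70 higher, both given as a description without a test. *Il11*, also of that family, lay the other way, at 4.11 ± 1.2 FPKM (SD, n = 3) in WT and 0.992 ± 0.30 FPKM (SD, n = 4) in *Socs3* cKO. Of the 9 cytokines 1 was called lower, where 319 of 13105 genes were. In analyses added after seeing the data, 9 STAT3 targets rose under median-of-ratios scaling and 9 under quantile normalization, and with the GC and length trend removed 6 of 14 rose and 1 fell, with medians of 1.23, 1.14 and 0.80. Over all genes 1073 of 13105, 921 of 13105 and 750 of 12640 were called higher, in the same order.

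Among the STAT5 targets, the class that includes *Cish*, *Pim1*, a serine/threonine kinase (log2(FC) = 2.68), and *Myc*, a transcription factor (2.00), rose at 10 weeks. Both are also in the STAT3 list, so their rise is not separate from that list. No count is given for the STAT5 list, because *Osm* passed the filter only through *Socs3* cKO mice and *Il2ra* (log2(FC) = -1.67) only through WT mice. Among 16 tested receptors bound by SOCS proteins, *Irs2*, an insulin receptor substrate, stood at 4.16 and *Il2rb*, the IL-2 receptor beta chain, at 2.53. Their WT means were 0.408 and 0.935 FPKM, and both passed the filter only through *Socs3* cKO mice. For that reason no count is given for the receptors. Their median was 0.88 against 0.31 over all genes, and 0.13 against -0.083 with the GC and length trend removed. Of 10 tested JAK and STAT genes *Jak2* (1.22), *Jak1* (1.09) and *Stat3* (1.04) rose, where 12.5% of all genes were called higher. None of the 10 was called under median-of-ratios scaling, quantile normalization or with the GC and length trend removed. Among 12 other inhibitors of the pathway the adaptor *Sh2b3* (2.68) and the phosphatase *Ptpn1* (1.55) rose. No count is given for this list, because *Cbl* passed the filter only through *Socs3* cKO mice. Its median was 1.045 against 0.31 over all genes. In the same alternatives it was 0.79, 0.66 and 0.56, against 0.058, -0.024 and -0.083 over all genes. None of the 9 genes of the SOCS box ligase passed in either direction in limma (3 had an unadjusted p under 0.05), with a median of -0.22, and the most abundant, *Tceb2* (elongin B), had a log2(FC) of -0.70 (adjusted p = 0.0883).

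At 2 weeks the same lists held few calls. *Ccnd1*, a cell cycle gene in both the STAT3 and the STAT5 list, fell by 1.21 on the log2 scale (adjusted p = 0.00585), and *Stat2* fell by 1.26 (adjusted p = 0.0098). *Il7* (1.33), which passed the filter only through *Socs3* cKO mice, *Prlr*, the prolactin receptor (1.28), and *Ifngr1*, the interferon gamma receptor (1.21), rose. With the GC and length trend removed, no STAT3 target, STAT5 target, JAK or STAT gene or SOCS-inducing cytokine was called at 2 weeks. In that fit 1 of 15 tested receptors was called higher. No JAK or STAT gene was called under quantile normalization either. The median of the 15 STAT3 targets was -0.38, against -0.21 over all genes. No gene of the SOCS box ligase (9 tested) or of the other inhibitors (12 tested) was called in limma, although 5 and 8 of them had an unadjusted p under 0.05. The median of the STAT3 targets was 0.23 with the GC and length trend removed. In the interaction 10 of 15 STAT3 targets were called with a larger effect at 10 weeks, where 18.0% of all genes were, with a median of 2.25 against 0.55 over all genes.

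Markers of other cells moved with genotype as well. At 10 weeks the 10 macrophage markers summed to 818.6 to 1384 FPKM in *Socs3* cKO and 432.4 to 748.2 FPKM in WT, and none was at 0 in any library. Of the 10, *Itgam* and *Fcgr1* passed the filter only through *Socs3* cKO mice, with lowest WT values of 0.93 and 0.95 FPKM. For that reason no count is given for them. Their median log2(FC) was 1.22 against 0.31 over all genes, and 0.78 against -0.083 with the GC and length trend removed. At 10 weeks the summed T cell markers were 42.4 to 59.9 FPKM in *Socs3* cKO and 39.5 to 43.4 FPKM in WT, and neutrophil markers, up to 3 of them listed at 0 in a library, 5.30 to 18.3 FPKM and 8.26 to 12.6 FPKM. At 2 weeks all 10 hair follicle markers found fell in *Socs3* cKO, at 7.43 to 14.5 FPKM summed against 557.3 to 886.6 FPKM in WT, and 8 of 10 skeletal muscle markers rose, at 2154 to 4518 FPKM against 851 to 1288 FPKM. Over all genes at that age 972 of 13524 were called lower, and 7.24% were called higher. At 10 weeks muscle markers lay the other way, at 563.5 to 1003 FPKM in *Socs3* cKO against 1429 to 2422 FPKM in WT, with 3 of 10 called lower (5 under median-of-ratios scaling). Over all genes 319 of 13105 were called lower (632 under median-of-ratios scaling). At 2 weeks the summed fibroblast markers were 5395 to 7438 FPKM in *Socs3* cKO against 13040 to 15280 FPKM in WT. That sum was mostly collagen, as *Col3a1* averaged 2104 FPKM against 4673 FPKM, whereas *Dcn* averaged 2107 FPKM against 838.3 FPKM. Of the 8 fibroblast markers 3 were called lower and 1 higher, with a median log2(FC) of -0.33 against -0.21 over all genes. The 2-week calls over all genes are given above. Summed adipocyte markers at 2 weeks were 460.8 to 875.4 FPKM in *Socs3* cKO against 252.1 to 287.5 FPKM in WT. The part of these cell types in the SOCS values was not tested.

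For each member, the genes with the most similar pattern over the 15 libraries were named by Pearson r of log2(FPKM + 0.1) among 13929 genes, as a description without a test, since libraries of a group share genotype, age and base composition. They were *Maff* (r = 0.974) and *Sik1* (0.967) for *Socs3*, *Nfkbie* (0.964) and *Rnf19b* (0.955) for *Cish*, *Cotl1* (0.973) and *Irx3* (0.959) for *Socs1*, and *Rap1b* (0.936) and *Rerg* (0.918) for *Socs2*. For *Socs4* they were *Plxdc2* (0.98) and *Slc6a20a* (0.974), for *Socs5* *Rcn1* (0.967) and *Ddah1* (0.951), for *Socs6* *Bach1* (0.982) and *Klf6* (0.98), and for *Socs7* *Itga3* (0.986) and *Fam100a* (0.983). *Maff*, a small MAF transcription factor, averaged 25.5 FPKM in *Socs3* cKO at 10 weeks against 3.46 FPKM in WT, and *Nfkbie*, an NF-kB inhibitor, 7.26 FPKM against 1.77 FPKM.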

How the data were processed

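Ear RNA of 15 mice was prepared with TRIzol and TruSeq kits and sequenced as single reads. The authors aligned reads to mm9 with TopHat2 2.1.0 and deposited 1 FPKM value per gene. The submitters' processing notes also name Cufflinks, without a version or role. Read counts, and further WT mice of the study, were not used here. Groups came from the labels. FPKM was analysed as log2(FPKM + 0.1) for genes with at least 1 FPKM in at least 3 samples of the fit, with limma 3.58.1 (trend, R 4.3.3), each age alone for genotype and all 4 groups for the interaction and for age. A call needed a Benjamini-Hochberg adjusted p below 0.01 over all tested genes and a log2(FC) of at least 1 in size, the thresholds of the study. Exact 2-sided permutation tests used scipy 1.17.1. Alternatives were other pseudocounts, filters and scalings, a replicate block, a constant prior variance, other sets of groups and each mouse left out. The limma step was tested on simulated data. Positions, GC content and lengths came from GENCODE annotation of mm9. The text names all 8 members, the 2 most similar genes of each, and at most 4 genes per list and comparison (the called ones with the largest change, or else the most abundant). A few more listed genes are named where a sum or the filter leans on them, or where a gene went the other way. The result of 1 pathway list is not reported here. Members and lists were chosen with earlier results of these data known.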

Additional observations from a re-analysis of the deposited data

Results flagged for a closer look

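In 24 groups of 4 mice (8 genes, 3 groups) a single mouse lay far from the rest in 4, where chance gives about 1 in 20. The gap to the nearest mouse, as a share of the group's range, was 0.834 for *Socs1* in WT replicate 4 at 2 weeks (7.75 FPKM, lowest), 0.869 for *Socs3* in WT replicate 1 at 2 weeks (9.71 FPKM, lowest), 0.893 for *Socs7* in *Socs3* cKO replicate 1 at 2 weeks (1.08 FPKM, lowest) and 0.896 for *Cish* in *Socs3* cKO replicate 3 at 10 weeks (31.6 FPKM, highest). Both WT values came from groups with a narrow range, and *Socs3* cKO replicate 1 at 2 weeks is the library with the GC gap of -2.32.

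The genotype effect differed between ages, as 10 weeks minus 2 weeks on the log2 scale, by 4.60 for *Socs3*, 3.44 for *Cish* and 1.18 for *Socs6* in the limma interaction. For *Socs7* every *Socs3* cKO mouse was below WT at 2 weeks and above WT at 10 weeks, a difference of 1.77 whose adjusted p of 0.0107 in the same limma fit missed the threshold. It passed under 5 of 25 alternatives, with a pseudocount of 1 (adjusted p = 0.00566), a stricter filter (0.00999) or *Socs3* cKO replicate 1, 2 or 4 of 2 weeks left out. With the GC and length trend removed, that of *Socs7* was 0.040 (adjusted p = 0.894).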

How the results depend on the processing

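*Socs3* at 10 weeks was called under all 18 alternatives (log2(FC) 3.18 to 3.88) and *Cish* under 17 (1.63 to 2.17), and the interaction of both under all 25. *Socs4* at 2 weeks was called under 18 of 19. The cause of the changes below was not tested.

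The number of members called at 2 weeks, 1 as reported, was 2 with a pseudocount of 1, median-of-ratios scaling, quantile normalization or all 4 groups in one fit, and 1 to 3 with a mouse left out. At 10 weeks, 4 as reported, it was 2 to 4 with a mouse left out. The interaction, 3 as reported, gave 2 to 5. With age, WT gave 0 to 1 and *Socs3* cKO 1 to 3 with a mouse left out, and each gave 1 with the groups of that genotype alone.

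Same-numbered mice did not deviate together (r = -0.203 to 0.057), so replicate numbers were not taken as pairs. With the replicate block 0 members were called at 2 weeks (*Socs4* 1.50, adjusted p = 0.0107), and *Socs5* at 10 weeks was -0.040. With the GC and length trend removed and the replicate block, 1 was called at 10 weeks (*Socs3*). That fit turned *Socs3* (0.11) and *Socs6* (-0.22) at 2 weeks, *Socs5* (-0.81) and *Socs7* (-0.097) at 10 weeks, *Socs5* (-0.57) and *Socs7* (-0.010) in the interaction, and *Cish* (0.16), *Socs4* (0.31), *Socs5* (0.13), *Socs6* (0.14) and *Socs7* (0.44) with age in WT.

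The GC and length trend removed without the block turned *Socs3* (0.11) and *Socs6* (-0.22) at 2 weeks, *Socs5* (-0.64) and *Socs7* (-0.023) at 10 weeks, *Socs5* (-0.51) in the interaction, and *Cish* (0.16), *Socs4* (0.30), *Socs5* (0.071), *Socs6* (0.18) and *Socs7* (0.39) with age in WT. Median-of-ratios scaling turned *Socs5* at 10 weeks (-0.21) and *Socs4* with age in WT (0.11). Quantile normalization turned *Socs1* (-0.033) and *Socs5* (-0.37) at 10 weeks, *Socs5* in the interaction (-0.22), and *Socs1* (0.17), *Socs4* (0.16) and *Socs6* (0.27) with age in WT. Leaving out a mouse turned *Socs2* (-0.029 to 0.073) and *Socs6* (-0.055 to 0.25) at 2 weeks, *Socs5* at 10 weeks (-0.040 to 0.15), and *Socs2* (-0.19 to 0.51) and *Socs4* (-0.68 to 0.29) with age in WT. None of the reversed values was called. With no read counts, depth sets no error for single genes, and 3 WT mice limit the 10-week tests.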
